A study of Citrus maxima with 12 samples.

Results

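Yellow spot disease in pomelo fruit of the cultivar Jinsha was described from 6 RNA sequencing libraries, out of 12 in the series. They are 3 libraries of diseased fruit (treatment "Disease") and 3 of control fruit, chosen by the cultivar and treatment in the sample labels. The other libraries, 3 of diseased and 3 of control fruit of the cultivar Jinlan, are used below only to show where Jinsha differed from Jinlan and where it did not. Each library has an FPKM value (fragments relative to transcript length and to all mapped fragments) for each of 32863 gene identifiers. Of the identifiers, 16530 (50.3%) reached 1 FPKM in at least 3 of the 6 Jinsha libraries and were tested.

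Pomelo (Citrus maxima) is a large-fruited citrus species. The labels name the tissue as fruit, without saying whether peel, pulp or whole fruit was taken, and they do not give fruit age, the agent of the disease, or how much of the diseased fruit was affected. Plants that detect a microbe or tissue damage commonly change the expression of many genes at once, through hormones such as salicylate, jasmonate and ethylene, and make defence proteins, lignin and phenolic compounds. Which of the measured genes belong to these systems cannot be said here, because the identifiers are not paired with gene names or products. The tissue could not be checked against marker genes for the same reason. Genes are therefore described by identifier, level and change. In whole tissue, fewer cells of a type and less RNA per cell cannot be told apart.

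Diseased and control libraries were far apart relative to the spread within each group. Over the tested genes, Pearson's r of log2(FPKM + 1) was 0.992 to 0.9941 between libraries of the same group and 0.9363 to 0.9425 between diseased and control libraries (across genes, which are not independent replicates). On principal components of the 6 libraries, 86.1% of the variance lay on the first. Diseased replicates 1 to 3 stood at 37, 39.8 and 40.1 on it, and control replicates 1 to 3 at -39.3, -39.7 and -37.9. The second component, with 4.29%, set control replicate 3 (-15.9) apart from control replicates 1 (6.27) and 2 (9.35). The SD between replicates had a median over genes of 0.0861 in diseased and 0.0856 in control libraries on the log2(FPKM + 1) scale. It was larger in diseased fruit for 50.5% of the genes. The summed FPKM of the 6 libraries was 550055 to 572628, and the lowest sum was that of diseased replicate 1.

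Disease went with lower expression more often than with higher expression among genes that changed strongly. With limma, 928 genes fell and 390 rose by at least 2-fold in diseased Jinsha fruit (adjusted p below 0.05), which is 5.61% and 2.36% of the genes tested. The excess of decreases was present at 4-fold, with 137 genes lower and 90 higher. It was not present among the largest changes, with 21 genes at least 8-fold lower and 27 higher, and 7 at least 16-fold lower and 10 higher. Fold changes are ratios of FPKM + 1 and understate the change of genes with low values. With FPKM + 5 in place of FPKM + 1, 423 genes fell and 221 rose at least 2-fold.

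In 388 of the 390 genes that rose, every diseased library was above every control library, and in 927 of the 928 that fell every diseased library was below every control library. Such freedom from overlap was common in general, at 65.3% of all tested genes. In 373 of the 390 and 896 of the 928 the gap between the groups was also wider than the range within either group, on the log2(FPKM + 1) scale, which held for 35.4% of all tested genes. These genes were chosen by their change in the same libraries, which largely fixes such counts.

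Most changes were small. At any fold, 58% of the tested genes were called at an adjusted p below 0.05, with 4496 higher (27.2%) and 5097 lower (30.8%) in diseased fruit. Increases were the more numerous after quantile normalization (5452 higher, 4385 lower) and among genes with a mean of at least 5 FPKM (3739 higher, 3663 lower). Of these calls 8275 were under 2-fold, and the median size of a called change was 0.447 on the log2 scale. The labels do not say whether the replicates came from separate fruits or trees. The p-values therefore rest on the spread among the libraries at hand, part or all of which may be technical.

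**Figure D1:**
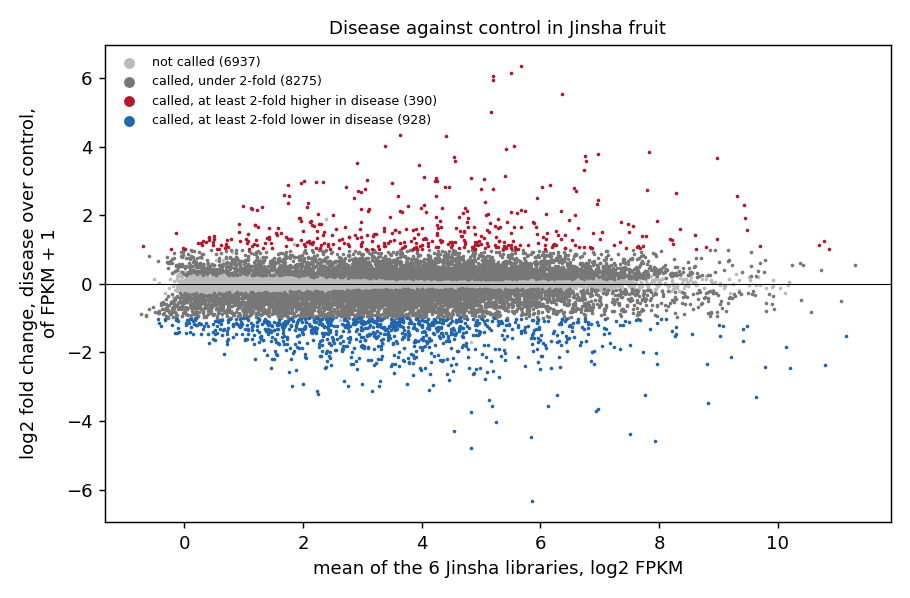
Each point is 1 of the 16530 tested genes, placed by its mean level over the 6 Jinsha libraries (log2 FPKM, horizontal) and its log2 fold change of FPKM + 1, disease over control (vertical). The 928 genes called at least 2-fold lower in disease lie below -1 and the 390 called at least 2-fold higher lie above 1, at every level of expression.

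The filter let in some genes through a single group. At least 1 FPKM in all 3 diseased libraries and in no control library was found for 149 genes, and the reverse, all 3 control libraries and no diseased library, for 337. These genes had to differ to be tested. They supplied 54 of the 390 rising and 124 of the 928 falling genes at 2-fold, and 336 and 804 remain without them. In single libraries, 16074, 16054 and 16106 genes reached 1 FPKM in diseased replicates 1 to 3, against 16456, 16450 and 16324 in control replicates 1 to 3. The groups did not overlap, and an exact permutation test gave a two-sided p of 0.1, the smallest that 3 against 3 libraries allow. In Jinlan the order was reversed, with 16369, 16378 and 16358 genes in diseased and 16295, 16257 and 16316 in control replicates 1 to 3.

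The direction of change ran with the level of expression over 4 classes of mean FPKM, though not among the 100 most abundant transcripts (below). Among genes with a mean under 5 FPKM over the 6 libraries, 774 rose and 1454 fell at any fold, so that 34.7% of the calls were increases. Between 5 and 20 FPKM increases made up 42.7% of the calls (1467 higher, 1972 lower). Between 20 and 100 FPKM the balance was the other way, with 1814 higher and 1345 lower (57.4% increases), and at 100 FPKM and over it was similar (441 higher, 326 lower, 57.5%). The median log2 fold change over all tested genes of the 4 classes, in the same order, was -0.108, -0.0418, 0.0613 and 0.0807. These medians are small beside the 2-fold changes. After quantile normalization they were 0.0348, 0.0486, 0.0488 and 0.0668, in the same order. The median standard error of a single gene's change was 0.109 in the lowest class and 0.0643 to 0.0777 in the others. It is not the error of a class median.

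This pattern was there when each library was scaled to the same FPKM sum (36.3%, 45.7%, 60.8% and 59.9% increases, from the lowest to the highest class) and after median-ratio scaling (36.2%, 45.1%, 60.2% and 59.5%). It was not there after quantile normalization, which gives all libraries the same distribution of values: increases then made up 53.7%, 56.1%, 55.8% and 55.9% of the calls. At 2-fold, decreases outnumbered increases in all 4 classes, with 278 lower and 97 higher under 5 FPKM, 366 and 111 from 5 to 20 FPKM, 216 and 134 from 20 to 100 FPKM, and 68 and 48 at 100 FPKM and over. That order held under all 3 other scalings.

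**Figure D2:**
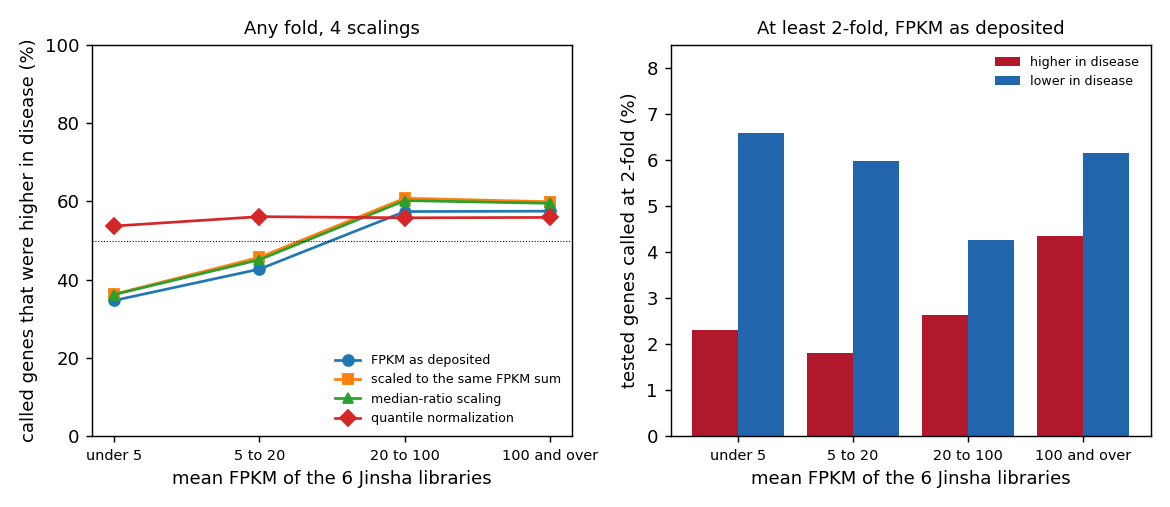
The left plot gives the percentage of called genes that were higher in disease for 4 classes of mean FPKM, with 1 line for each scaling; the dotted line marks 50%. The lines for FPKM as deposited, the same FPKM sum and median-ratio scaling climb from 34.7 to 36.3% in the lowest class to 57.5 to 59.9% in the highest, and the line for quantile normalization stays between 53.7 and 56.1%. In the right plot, bars give the percentage of tested genes called at least 2-fold higher or lower in disease, and the bar for lower is the taller in each class.

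By mean share of the total FPKM, the 390 genes that rose at least 2-fold held 6.63% in diseased and 2.22% in control Jinsha libraries. The 928 that fell held 3.05% in diseased and 9.83% in control Jinsha libraries. These sets are 2.36% and 5.61% of the genes tested, and the direction of their change was fixed by the choice. Those that fell had a median level of 4.6 FPKM in diseased and 15.6 FPKM in control fruit. Those that rose had a median of 28.4 FPKM in diseased and 7.35 FPKM in control fruit. Between the group means, the summed FPKM of the falling genes decreased by 38947, and 30 genes supplied 50% of that loss. The summed gain of the rising genes was 24673 FPKM, of which 20 genes supplied 50%. Abundant transcripts were therefore involved on both sides. Of the 111 falling genes at 100 FPKM or more in control fruit, 29 were still at that level in diseased fruit. Of the 73 rising genes at 100 FPKM or more in diseased fruit, 24 were at that level in control fruit too. These counts are largely set by the choice of genes with a 2-fold change. Of all 1092 transcripts at 100 FPKM or more in control fruit, 917 were at that level in diseased fruit too. At 1000 FPKM or more there were 24 transcripts in diseased and 28 in control fruit, with 15 in common.

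The 2 genes with the largest gain and the 2 with the largest loss of FPKM are named, among genes called at 2-fold without overlap. That choice favours abundant transcripts, and it fixes the lack of overlap and the 2-fold change. Cg5g038230 had 2334, 2561 and 2482 FPKM in diseased Jinsha replicates 1 to 3, against 1046, 937 and 1146 FPKM in control replicates 1 to 3. The groups did not overlap, and the log2 fold change was 1.24 (SE 0.098, adjusted p = 9.91e-06, limma). Cg8g006910 had 2566, 2302 and 2590 FPKM in diseased and 1283, 1199 and 1214 FPKM in control replicates 1 to 3. Its groups did not overlap either, and the log2 fold change was 1.01 (SE 0.088, adjusted p = 1.74e-05, limma). Without single libraries the change of Cg8g006910 was 0.98 to 1.07, so it lies at the 2-fold limit. By mean FPKM these transcripts ranked 3 and 2 in diseased fruit and 24 and 12 in control fruit, in the order given.

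Cg8g000800 had 555, 618 and 568 FPKM in diseased Jinsha replicates 1 to 3, against 2795, 2834 and 3332 FPKM in control replicates 1 to 3. It had the largest loss, with a log2 fold change of -2.36 (SE 0.096, adjusted p = 2.29e-07, limma), and ranked 69 in diseased and 2 in control fruit. Cg5g030100, the most abundant transcript of control fruit, had 1165, 1171 and 1200 FPKM in diseased and 3078, 3511 and 3481 FPKM in control replicates 1 to 3. It fell by 1.51 on the log2 scale (SE 0.09, adjusted p = 2.05e-06, limma) and ranked 11 in diseased fruit. The SDs of these 2 genes were 33.3 and 18.7 FPKM in diseased and 299.6 and 242 FPKM in control libraries (n = 3 each). Their means were also higher in control libraries. Cg5g038230 and Cg8g006910 went the other way, with SDs of 115 and 160 FPKM in diseased and 105 and 44.5 FPKM in control libraries.

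**Figure D3:**
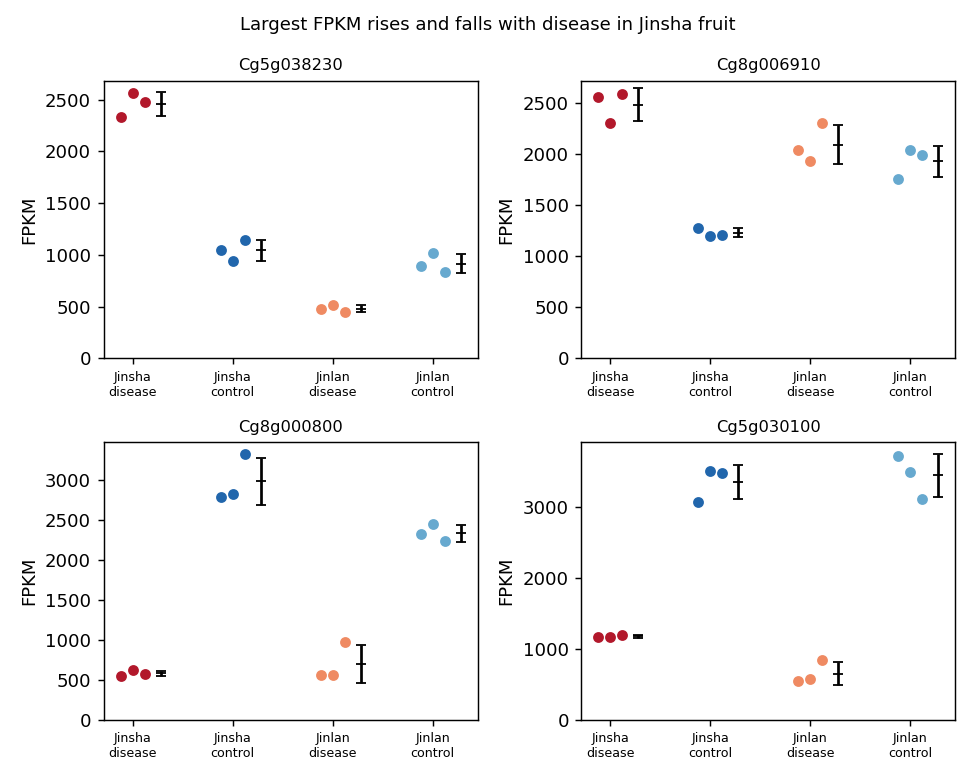
FPKM of 4 transcripts in every library, with points for replicates 1 to 3 of each group and the mean ± SD (n = 3) beside them. Cg5g038230 and Cg8g006910 were at 2302 FPKM or more in each diseased Jinsha library and at 1283 FPKM or less in each control library, and Cg8g000800 and Cg5g030100 were at 1200 FPKM or less in each diseased library and at 2795 FPKM or more in each control library.

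Changes among the most abundant transcripts went both ways, without the excess of increases at any fold seen at 100 FPKM and over. Of the 100 with the highest mean over the 6 Jinsha libraries, 32 rose, 42 fell and 26 were not called. That is 74% called, against 58% of all tested genes and 69.3% of those with a mean of at least 100 FPKM. Their median log2 fold change was -0.072, against 0.0807 for all genes at 100 FPKM and over. At 2-fold, 10 of the 100 rose and 13 fell. The shares at 2-fold were 2.36% and 5.61% of all tested genes, and 4.34% and 6.15% of those at 100 FPKM and over. Together the 100 held 14.4%, 14.7% and 14.4% of the total FPKM in diseased replicates 1 to 3, against 15%, 15.1% and 15.6% in control replicates 1 to 3. Of the 10 most abundant, 6 rose and 4 fell, beside 27.2% and 30.8% of all tested genes. The 10 held 3.27 ± 0.0245% in diseased and 3.28 ± 0.121% in control libraries (SD, n = 3), a difference smaller than the spread. Expression was spread over many genes in both groups: 1170 to 1191 transcripts supplied 50% of the FPKM of a diseased library and 1149 to 1194 that of a control library.

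Some genes passed from near absence to clear expression. Below 1 FPKM in every control library and at least 5 FPKM in every diseased library were 16 genes. Their median level was 9.19, 10.6 and 9.98 FPKM in diseased replicates 1 to 3, against 0.252, 0.332 and 0.24 FPKM in control replicates 1 to 3. The highest of them had a mean of 102 FPKM in diseased fruit, and 4 were listed at 0 in at least 1 control library. In the opposite direction, 14 genes had a median of 0.569, 0.523 and 0.366 FPKM in diseased replicates 1 to 3, against 7.14, 7.03 and 7.15 FPKM in control replicates 1 to 3. These levels describe genes that the same values picked out.

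In the Jinlan libraries, which had no part in that choice, lower values in disease were the more frequent in both sets. Of the 16 genes, 9 were lower in every diseased than in every control Jinlan library and 3 were higher, beside 33.4% and 34.3% of all tested genes. Their median in Jinlan was 0.951, 0.84 and 1 FPKM in diseased replicates 1 to 3, against 2.8, 2.15 and 2.69 FPKM in control replicates 1 to 3. Only 2 of the 16 reached 5 FPKM in all diseased Jinlan libraries. Of the 14 genes, 13 were lower in every diseased than in every control Jinlan library (33.4% of all tested genes) and none was higher (34.3%), and 8 reached 5 FPKM in all control Jinlan libraries. The difference of the disease change between the cultivars was called for all 16 and for 11 of the 14 (limma, adjusted p below 0.05). It is called for 59% of all tested genes, and it contains the Jinsha change by which the genes were chosen.

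**Figure D4:**
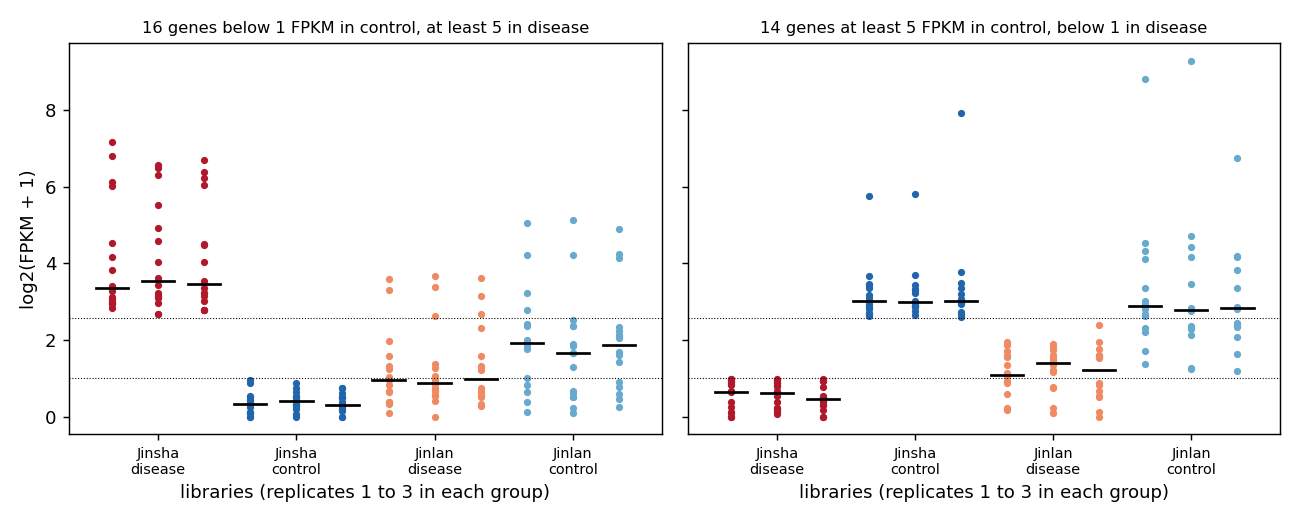
Points are genes, plotted as log2(FPKM + 1) in each of the 12 libraries, with black bars at the median; dotted lines mark 1 and 5 FPKM. The left plot shows the 16 genes below 1 FPKM in Jinsha control and at least 5 FPKM in Jinsha disease, whose Jinlan medians were 0.84 to 1 FPKM in disease and 2.15 to 2.8 FPKM in control. The right plot shows the 14 genes of the opposite kind, whose Jinlan medians were 1.14 to 1.62 FPKM in disease and 5.86 to 6.38 FPKM in control.

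Strong decreases of Jinsha were seen more widely in Jinlan than strong increases. The disease comparisons of the cultivars share no library, but 1 fit to all 12 libraries supplied the Jinlan calls. Of the 137 genes at least 4-fold lower in diseased Jinsha fruit, 85 (62%) were called at least 2-fold lower in diseased Jinlan fruit, beside 3.96% of all tested genes. Their median log2 fold change was -2.35 in Jinsha and -1.55 in Jinlan. Of the 90 genes at least 4-fold higher in Jinsha, 8 (8.89%) were called at least 2-fold higher in Jinlan, beside 4.16% of all tested genes, and 21 (23.3%) at least 2-fold lower. Their median log2 fold change was 2.73 in Jinsha and -0.377 in Jinlan. This excess of decreases in Jinlan was not there over all 390 genes at least 2-fold higher in Jinsha: 50 (12.8%) were called at least 2-fold higher and 35 (8.97%) at least 2-fold lower in Jinlan, with a median log2 fold change of 1.37 in Jinsha and 0.107 in Jinlan. Of the 928 genes at least 2-fold lower in Jinsha, 58 (6.25%) were called at least 2-fold higher and 280 (30.2%) at least 2-fold lower in Jinlan, with medians of -1.35 in Jinsha and -0.485 in Jinlan.

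The 90 genes had a median of 38.6 FPKM in diseased and 3.79 FPKM in control Jinsha fruit, and of 5.37 FPKM in diseased and 7.71 FPKM in control Jinlan fruit. Among the larger sets, the Jinlan change was under 1.5-fold for 216 of the 390 that rose in Jinsha by 2-fold or more (55.4%) and for 398 of the 928 that fell (42.9%), beside 79.2% of all tested genes. The 928 genes held 3.24%, 2.97% and 2.93% of the total FPKM in diseased and 9.54%, 9.92% and 10% in control Jinsha replicates 1 to 3. In Jinlan the same genes held 4.77%, 4.92% and 5.22% in diseased and 9.64%, 9.82% and 9.08% in control replicates 1 to 3, so the loss was in the same direction without overlap. The 390 genes held 6.49% to 6.71% in diseased and 2.15% to 2.25% in control Jinsha libraries, but 3.32% to 3.36% in diseased and 3.4% to 3.41% in control Jinlan libraries.

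Among genes with at least a 2-fold rise in Jinsha that were called in the interaction, Cg5g038230 and CgUng005770 had the largest difference of the FPKM change from Jinlan. Cg5g038230 had 482, 514 and 444 FPKM in diseased and 893, 1016 and 838 FPKM in control Jinlan replicates 1 to 3, a decrease without overlap where Jinsha had an increase. The log2 change of Jinsha exceeded that of Jinlan by 2.17 (SE 0.14, adjusted p = 7.85e-08, limma interaction). CgUng005770 had 2156, 2311 and 2355 FPKM in diseased and 1070, 995 and 1064 FPKM in control Jinsha replicates 1 to 3. In Jinlan it had 845, 871 and 783 FPKM in diseased and 1451, 1407 and 1373 FPKM in control replicates 1 to 3. It too rose in one cultivar and fell in the other, with a difference of 1.88 (SE 0.1, adjusted p = 2.95e-08, limma interaction).

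Among genes with at least a 2-fold fall in Jinsha that were called in the interaction, Cg7g007850 and Cg3g018510 had the largest such difference. Cg7g007850 had 143, 159 and 134 FPKM in diseased and 1262, 1471 and 1618 FPKM in control Jinsha replicates 1 to 3, a log2 fold change of -3.31. It also fell in Jinlan, with 223, 205 and 414 FPKM in diseased and 907, 1041 and 956 FPKM in control replicates 1 to 3. The log2 difference, Jinsha minus Jinlan, was -1.45 (SE 0.29, adjusted p = 0.000772, limma interaction). Without Jinlan disease replicate 3, the highest of the diseased values in Jinlan, it was -1.13 (adjusted p = 3.45e-05, limma interaction). Cg3g018510 had 422, 354 and 395 FPKM in diseased and 963, 1097 and 853 FPKM in control Jinsha replicates 1 to 3, without overlap. In Jinlan its groups overlapped, with 432, 393 and 457 FPKM in diseased and 454, 467 and 403 FPKM in control replicates 1 to 3 (adjusted p = 0.706, limma). The difference was -1.26 (SE 0.14, adjusted p = 9.23e-06, limma interaction).

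**Figure D5:**
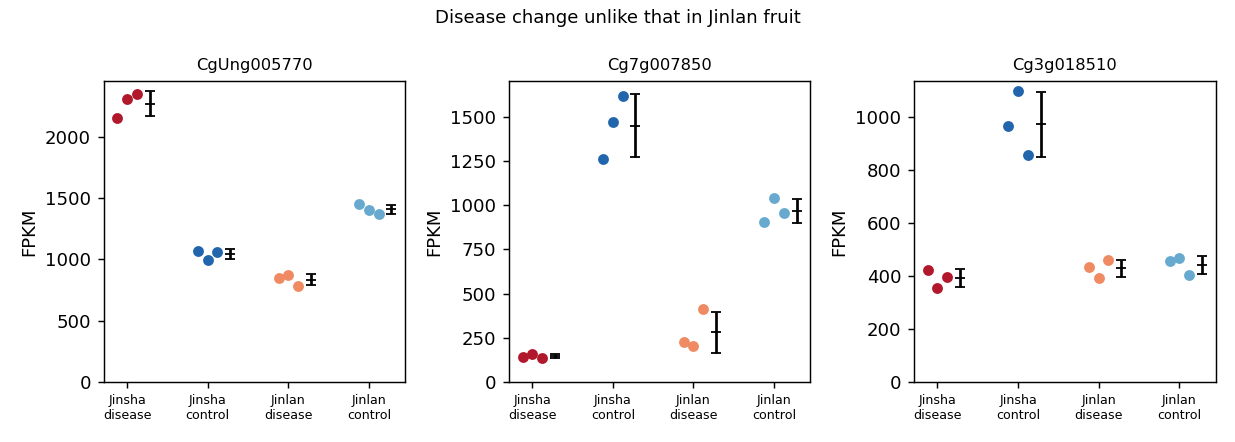
FPKM of 3 transcripts in every library, with points for replicates 1 to 3 of each group and the mean ± SD (n = 3) beside them. CgUng005770 was higher in disease in Jinsha and lower in disease in Jinlan, Cg7g007850 was lower in disease in both cultivars, and Cg3g018510 was lower in disease in Jinsha while its Jinlan groups overlapped between 393 and 467 FPKM.

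The other 3 transcripts named for the largest gains and losses in Jinsha are given for Jinlan as well. Cg8g006910 had 2047, 1936 and 2305 FPKM in diseased and 1756, 2044 and 1994 FPKM in control Jinlan replicates 1 to 3, so the groups overlapped. The Jinsha change was higher by 0.89 (adjusted p = 8.89e-05, limma interaction), but by 0.28 with an adjusted p of 0.127 after quantile normalization. Cg5g030100 had 544, 572 and 839 FPKM in diseased and 3717, 3502 and 3119 FPKM in control Jinlan replicates 1 to 3. It fell in both cultivars, and the Jinsha change was the smaller decrease by 0.92 (adjusted p = 0.00146, limma interaction). Without Jinlan disease replicate 3 it was the smaller decrease by 1.11 (adjusted p = 1.54e-05, limma interaction). Cg8g000800 had 558, 558 and 971 FPKM in diseased and 2332, 2448 and 2236 FPKM in control Jinlan replicates 1 to 3. Its difference of -0.56 (SE 0.24) was not called (adjusted p = 0.0632, limma interaction), and its value rested on single libraries and on scaling. It was called at -0.69 without Jinlan disease replicate 1 (adjusted p = 0.0296, limma) and at -0.69 without Jinlan disease replicate 2 (adjusted p = 0.0292, limma). It was -0.29 without Jinlan disease replicate 3 (adjusted p = 0.0589, limma) and -0.12 after quantile normalization (adjusted p = 0.709, limma), and called in neither.

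Strongly changed genes had an adjacent identifier number in the same set more frequently than other genes had. Most identifiers have a prefix and a number that runs in steps of 10, and 709 of the 928 falling genes had a tested gene at an adjacent number. Of these, 131 (18.5%) had an adjacent gene that also fell at least 2-fold, against 6.88% of the genes outside the falling set. Of the 390 rising genes 334 had such a neighbour, and for 46 (13.8%) it also rose at least 2-fold, against 3.35% of the genes outside the rising set. An adjacent gene changed at least 2-fold in the opposite direction for 3.53% of falling and 6.89% of rising genes. For falling genes this was close to the 3.35% of genes outside the rising set with a rising neighbour. For rising genes it was close to the 6.88% of genes outside the falling set with a falling neighbour.

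The falling genes included 12 runs of at least 3 adjacent numbers, with 41 genes in all, and the rising genes included 2 runs with 8 genes. A falling run of 3 genes included Cg8g000800, the gene with the largest loss of FPKM in Jinsha. The longest run had 8 falling genes with the prefix Cg6g. Their FPKM summed to 180, 158 and 149 in diseased Jinsha replicates 1 to 3, against 558, 587 and 616 in control replicates 1 to 3, and their log2 fold changes lay between -2.94 and -1.58. In Jinlan the sums were 138, 141 and 149 FPKM in diseased and 247, 265 and 243 FPKM in control replicates 1 to 3, and 4 of the 8 genes were called lower and 1 higher, beside 30.7% and 31.1% of all tested genes. The files give no coordinates or sequences, and if adjacent genes are near-identical copies, the fragments assigned to each are uncertain. Whether they are was not tested.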

How the data were processed

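The authors deposited 1 table of FPKM values for 32863 identifiers in 12 libraries. Per the labels' protocols, a Qiagen column kit was used for RNA and libraries were made with a SMARTER mRNA-Seq kit. How reads were aligned and quantified, and on which build and annotation, is not given in the sources used here. No counts were given, so depth is unknown and no counting interval is stated, and the low values showed no common step from which reads could be recovered. Values of 0 are called listed at 0, because an estimate may have failed.

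Values were taken as log2(FPKM + 1), for genes that reached 1 FPKM in 3 or more of the 6 Jinsha libraries. The 6 libraries were fitted with 2 group means in limma 3.58.1 (R 4.3.3, with moderated variances that follow a trend on mean level). Benjamini-Hochberg adjustment ran over all 16530 genes. Genes with an adjusted p below 0.05 are called, and said to have risen or fallen. The difference between the cultivars (Jinsha change minus Jinlan change) and the Jinlan calls came from a fit of 4 group means to all 12 libraries on the same genes. The fits were also run on simulated data with the same spread for every gene and few changed genes. Those settings differ from these data, so the run does not show how reliable the calls are here. No pair of Jinsha libraries shared more than 0.00479% of its nonzero values. Figures were drawn with matplotlib 3.10.9.

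Identifiers were not matched to names, so gene lists by function were not run, and no more than 2 identifiers are named for each direction of each comparison. For the disease comparison they had the largest FPKM changes among genes called at 2-fold without overlap between groups. For the difference they had the largest Jinsha minus Jinlan differences of the FPKM change among those genes that were also called in the interaction. The comparison, lists and rules were chosen with earlier results of these data known. Alternatives were other pseudocounts, filters, scalings and variance models, a fit to all 12 libraries, a block for the replicate number, weights per library, and fits without each library in turn.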

Additional observations from a re-analysis of the deposited data

Results flagged for a closer look

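By the limma interaction test, the change with disease was unequal in the 2 cultivars for 9759 of the 16530 tested genes (59%), with 4581 higher and 5178 lower in Jinsha. This split was turned by quantile normalization, with 5314 higher and 4579 lower. Of the 7 named genes it differed for 6. The log2 differences, Jinsha minus Jinlan, were 2.17 for Cg5g038230, 1.88 for CgUng005770, 0.92 for Cg5g030100, 0.89 for Cg8g006910, -1.26 for Cg3g018510 and -1.45 for Cg7g007850. These genes were picked for large changes in Jinsha or for this difference, so the share of 6 in 7 was largely set by that choice.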

How the results depend on the processing

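The size of the 2-fold sets changed with the pseudocount. At a pseudocount of 5, 221 genes rose and 423 fell at least 2-fold in diseased Jinsha fruit, and with 0.1 the numbers were 538 and 1352. Over the other settings that kept all libraries they were 293 to 463 and 650 to 949, and leaving out each library in turn gave 383 to 419 and 922 to 971. Calls at any fold numbered 7402 to 10032 over all settings. The split at any fold was turned by quantile normalization, with 5452 higher and 4385 lower, and by the filter on a mean of at least 5 FPKM, with 3739 higher and 3663 lower. Log2 fold changes of the 4 genes named for Jinsha stayed called in the same direction in all 18 settings. With the replicate block 8835 genes were called, 391 higher and 930 lower at 2-fold. In the difference from Jinlan the replicate block gave 9022 calls, against 9046 to 9553 without single libraries. Same-numbered libraries did not deviate together: the correlation of their deviations was -0.108 to -0.0432 in Jinsha and -0.165 to -0.0715 in Jinlan. The differences at 2-fold moved with a pseudocount of 5, to 387 genes higher and 717 lower, against 698 and 1420 with 1. With depth unknown, how firmly genes of low FPKM are measured cannot be stated.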

Other observations

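Identifiers starting with NewGene_ made up 2740 of the table, and 976 (35.6%) were tested. Their median level was 4.79 FPKM over the 6 Jinsha libraries, against 8.74 FPKM for identifiers starting with CgUng and 13.1 to 14.6 FPKM for the other 9 prefixes. Among all tested genes with a mean under 5 FPKM, 52.7% were called. Of the 976, 48.6% were called, against 51.7% for CgUng and 57.8% to 60.4% of the genes with those 9 prefixes. At 2-fold 13 (1.33%) rose and 60 (6.15%) fell in diseased fruit, which is the lowest share of increases among the 11 prefixes. Falling genes were the more frequent at 2-fold under each of the 11 prefixes, from 4.8% for Cg9g to 7.38% for Cg6g. The files do not say what the prefixes stand for.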
